A study of Mus musculus with 12 samples.

Results

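The glucocorticoid receptor Nr3c1, its close relative Nr3c2, the enzyme Hsd11b1 and 5 of the receptor's best known target genes (Fkbp5, Tsc22d3, Sgk1, Zbtb16 and Ddit4) were followed in mouse hearts after pressure overload. These 8 genes were taken by name from the 13552 genes of the deposited heart expression table, and all 8 passed the filter on low values that left 11240 genes for testing. They were chosen by their known roles while earlier results of the same data were already known, so the number of them that changed describes these genes and is not a test of the receptor pathway. Each gene's adjusted p came from a fit over all 11240 genes.

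The study compared wild-type (WT) mice with homozygous knock-in (KI) mice whose Bcl-xL, an anti-apoptotic protein of the Bcl-2 family, carries the S14A change, in which Ser14 is replaced by alanine in every tissue and cannot be phosphorylated. Hearts were taken 9 h after transverse aortic constriction (TAC), which narrows the aorta and overloads the left ventricle, or after sham surgery. There were 3 mice in each of 4 groups, called WT sham and WT TAC, then KI sham and KI TAC here, 12 male mice aged 8 to 10 weeks, all labelled C57BL/6 (C57BL/6J in the study's methods) and all operated under pentobarbital. According to the study's methods, WT mice were bought from a supplier and the KI line was backcrossed for several generations, and whether the RNA-seq mice were littermates was not given. The time of day of surgery and harvest was not given in the sources used here, and glucocorticoid levels are known to follow the day.

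Corticosterone, the main glucocorticoid of mice, enters cells and binds the glucocorticoid receptor, which waits in the cytoplasm in a complex with heat shock protein 90 and its partners. The bound receptor moves to the nucleus and switches on genes near glucocorticoid response elements, among them genes that feed back on the receptor itself, such as Fkbp5. It also represses many inflammatory genes. In cardiomyocytes, which hold little of the enzyme that inactivates glucocorticoids, the mineralocorticoid receptor encoded by Nr3c2 can be occupied by the same hormone. Surgical stress is known to raise glucocorticoid levels. No hormone level was analysed here.

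Values are RPKM, the reads on a gene divided by its exon length and by the total of reads on genes in that heart, so that levels can be set beside each other per length, and 23650191 to 32455166 reads fell on genes in each heart. Differences are given on the log2(RPKM + 1) scale with their standard error (SE), and a gene is called changed where limma's adjusted p (Benjamini-Hochberg over all genes tested) was under 0.05. The lowest read number behind any member in any heart was 247 reads, for Fkbp5. The cardiomyocyte markers Myh6, Tnnt2, Tnni3, Actc1, Ryr2 and Pln were all present in all hearts, with summed levels from 11409 to 21785 RPKM. The WT sham mouse 1 library stood apart by its share of reads on mitochondrial genes, 6.36% against 9.76% to 12.5% in the other 11 hearts. Bcl2l1 (ENSMUSG00000007659), the gene that encodes Bcl-xL, was present in all hearts, and a change of 1 amino acid cannot be checked from gene-level values.

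Sgk1 (ENSMUSG00000019970), the serum- and glucocorticoid-induced kinase that acts on ion channels and cell survival, was higher in KI TAC than in each of the other 3 groups. Its level was 12.1, 13.6 and 11.7 RPKM in WT sham mice 1, 2 and 3, and 6.76, 11.3 and 10.1 RPKM in WT TAC mice 7, 9 and 10. It was 13.6, 12.7 and 10.9 RPKM in KI sham mice 1, 2 and 3, and 29.4, 35.4 and 31.8 RPKM in KI TAC mice 5, 6 and 7. Every KI TAC heart was thus above all 9 other hearts, and every WT TAC heart was below every WT sham heart. Sgk1 rose in KI TAC against KI sham by 1.31 on the log2 scale (SE 0.188, limma adjusted p = 0.000419) and was higher in KI TAC than in WT TAC by 1.70 (SE 0.188, limma adjusted p = 0.00188). In WT TAC against WT sham the difference was -0.40 (SE 0.188, limma adjusted p = 0.182), which did not pass the threshold. The difference between the KI and the WT response was 1.71 (SE 0.265, unadjusted p = 1.64e-05 by limma), and its adjusted p over all genes was 0.0919. Both calls held when any of the 12 mice was left out.

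Sgk1 has several start sites, and RefSeq promoter windows (GRCm38.p6) of 300 bases, from 250 before to 50 after a start, gave 6 windows for it. Of 32851 such windows over all genes, 3 (0.00913%) held the full glucocorticoid response element, which is the hexamer AGAACA and its reverse complement TGTTCT with any 3 bases between them, and an Sgk1 window was among those 3. A looser form of the element, GNACA and TGTNC with any 3 bases between them, was in 156 windows (0.475%), and the same Sgk1 window was the one of the 6 that held it. Of the other 5 Sgk1 windows, 2 held a single hexamer and 3 held none of the motifs searched. Its 250 upstream bases, on the plus strand, are shown because the gene rose in KI TAC and its window carries the receptor's own motif, in capitals, at chr10:21993701-21993715, beginning 189 bases before the start. The other capitals, beginning 246 bases before the start, mark an E-box (CACGTG) that overlaps a single TGTTCT.
Sgk1, chr10:21993640-21993889: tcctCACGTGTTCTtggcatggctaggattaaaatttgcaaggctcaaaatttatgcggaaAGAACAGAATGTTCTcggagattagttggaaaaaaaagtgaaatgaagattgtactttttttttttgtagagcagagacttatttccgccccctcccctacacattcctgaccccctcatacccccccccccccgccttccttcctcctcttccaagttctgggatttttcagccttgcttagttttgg
The single hexamer, AGAACA or TGTTCT, occurred in 19.0% of all windows and the E-box in 7.15%, and the full element was far rarer than either. Both strands were searched, and a match describes the letters and does not show that the receptor was bound there.

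Fkbp5 (ENSMUSG00000024222) encodes the cochaperone FKBP51, which holds the receptor in a state of low hormone affinity and is itself induced by the receptor. Its level was 1.30, 5.42 and 5.04 RPKM in WT sham mice 1, 2 and 3, and 1.31, 9.29 and 2.38 RPKM in WT TAC mice 7, 9 and 10. It was 1.07, 4.77 and 4.42 RPKM in KI sham mice 1, 2 and 3, and 16.35, 27.49 and 14.72 RPKM in KI TAC mice 5, 6 and 7. The 3 KI TAC hearts were above the other 9, while the other 3 groups overlapped and each spanned more than 4-fold within itself (4.18-fold in WT sham, 7.11-fold in WT TAC and 4.47-fold in KI sham). Fkbp5 rose in KI TAC against KI sham by 2.30 (SE 0.539, limma adjusted p = 0.00794) and was higher in KI TAC than in WT TAC by 2.20 (SE 0.539, limma adjusted p = 0.0239). In WT TAC against WT sham the difference was -0.05 with a 95% interval from -1.21 to 1.11, so that a change of 2-fold in either direction lay within the error. The KI and WT responses differed by 2.35 (SE 0.762, limma adjusted p = 0.205). The call against WT TAC was lost without WT TAC mouse 7, WT TAC mouse 10, KI TAC mouse 5 or KI TAC mouse 6, where the adjusted p reached at most 0.115, and in a fit of the 2 TAC groups alone (adjusted p = 0.0546).

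The Fkbp5 window, on the minus strand, held no glucocorticoid response element and 1 E-box, beginning 169 bases before the start and shown in capitals. It is printed beside the Sgk1 window because both genes rose in KI TAC. Sgk1 had 6 windows to search, and bases outside the windows were not searched for either gene. A window without a match thus does not show that a gene lacks the element.
Fkbp5, chr17:28486150-28486399: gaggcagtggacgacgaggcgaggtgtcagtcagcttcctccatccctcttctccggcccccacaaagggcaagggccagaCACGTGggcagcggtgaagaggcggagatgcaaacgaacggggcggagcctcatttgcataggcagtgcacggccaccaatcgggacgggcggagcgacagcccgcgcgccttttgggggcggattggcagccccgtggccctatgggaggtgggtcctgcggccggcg
The E-box contains the hypoxia element core ACGTG, so the same letters count for both motifs.

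**Figure D1:**
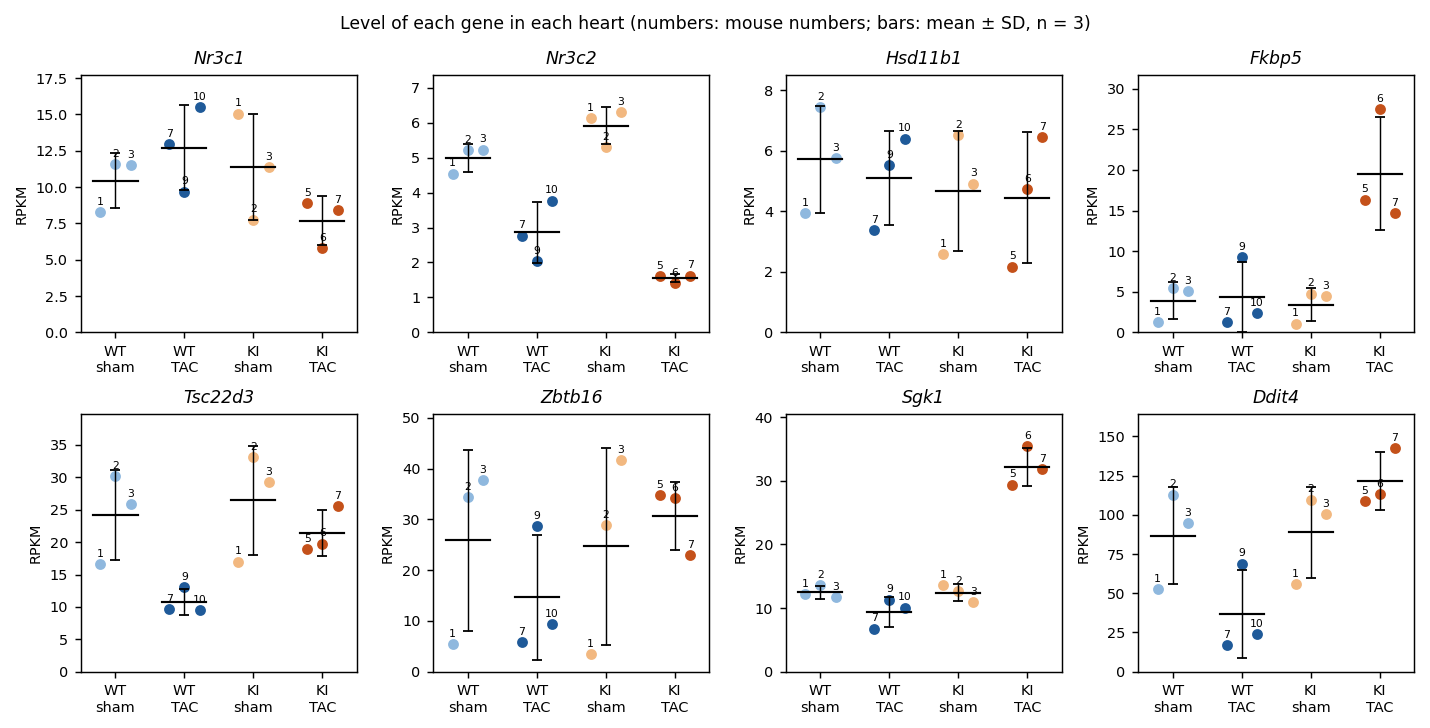
RPKM (linear axis from 0) of the 8 genes in each of the 12 hearts, with mouse numbers above the points and the mean ± SD of the 3 mice of a group as bars. Sgk1 and Fkbp5 are higher in the 3 KI TAC hearts than in all others, Nr3c2 takes a separate range in each group, and WT sham mouse 1 and KI sham mouse 1 lie low for Fkbp5, Tsc22d3, Zbtb16 and Ddit4.

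Ddit4 (ENSMUSG00000020108), which encodes REDD1, an inhibitor of the growth kinase mTORC1 induced by glucocorticoids, low oxygen and other stresses, was the most abundant of the 8 per length. Its level was 52.6, 112.9 and 94.7 RPKM in WT sham mice 1, 2 and 3, and 17.1, 69.0 and 24.2 RPKM in WT TAC mice 7, 9 and 10. It was 55.9, 109.7 and 100.6 RPKM in KI sham mice 1, 2 and 3, and 108.5, 113.0 and 142.7 RPKM in KI TAC mice 5, 6 and 7. All KI TAC hearts were above all WT TAC hearts, whereas both TAC groups overlapped the sham group of their genotype. Ddit4 was higher in KI TAC than in WT TAC by 1.94 (SE 0.429, limma adjusted p = 0.0169), and fell by 1.40 in WT TAC against WT sham (SE 0.429, limma adjusted p = 0.0497). With TAC in KI mice the difference was 0.50 (SE 0.429, limma adjusted p = 0.430). The WT call stood at the threshold and was lost when any of 9 of the 12 mice was left out (adjusted p up to 0.207), and with either scaling, a smaller pseudocount, no filter or a fit of the 2 WT groups alone. The call between the TAC groups was lost without WT TAC mouse 7 or KI TAC mouse 6 (adjusted p up to 0.0919) and in a fit of the 2 TAC groups alone (adjusted p = 0.0547).

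Tsc22d3 (ENSMUSG00000031431) encodes GILZ, a leucine zipper protein through which glucocorticoids damp inflammation. Its level was 16.6, 30.2 and 25.8 RPKM in WT sham mice 1, 2 and 3, and 9.62, 13.1 and 9.48 RPKM in WT TAC mice 7, 9 and 10. It was 17.0, 33.1 and 29.3 RPKM in KI sham mice 1, 2 and 3, and 18.9, 19.8 and 25.5 RPKM in KI TAC mice 5, 6 and 7. WT TAC was below each of the other 3 groups without overlap, and the KI TAC hearts lay within the range of both sham groups. Tsc22d3 fell in WT TAC against WT sham by 1.08 (SE 0.265, limma adjusted p = 0.0188) and was higher in KI TAC than in WT TAC by 0.93 (SE 0.265, limma adjusted p = 0.0395). With TAC in KI mice the difference was -0.25 (SE 0.265, limma adjusted p = 0.519). The fall in WT lost its call without WT sham mouse 2, WT sham mouse 3 or WT TAC mouse 7 (adjusted p up to 0.0872). The call between the TAC groups was lost when any of 7 mice was left out (adjusted p up to 0.147) and in a fit of the 2 TAC groups alone (adjusted p = 0.0544).

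The windows of these genes were searched in the same way. Of 3 windows for Tsc22d3, the one shown held a single TGTTCT, beginning 185 bases before the start, and the other 2 held none of the motifs. The Ddit4 window held 1 hypoxia element core, ACGTG, beginning 187 bases before the start, a motif found in 19.6% of all windows. Both genes are on the minus strand, and both sequences are shown because these genes were lower in WT TAC than in KI TAC, with the motif letters in capitals.
Tsc22d3, chrX:140600523-140600772: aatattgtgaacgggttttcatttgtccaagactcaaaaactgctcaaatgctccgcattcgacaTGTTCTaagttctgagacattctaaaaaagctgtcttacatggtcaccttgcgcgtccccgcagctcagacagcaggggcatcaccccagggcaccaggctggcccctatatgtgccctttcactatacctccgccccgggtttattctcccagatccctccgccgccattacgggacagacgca
Ddit4, chr10:59951771-59952020: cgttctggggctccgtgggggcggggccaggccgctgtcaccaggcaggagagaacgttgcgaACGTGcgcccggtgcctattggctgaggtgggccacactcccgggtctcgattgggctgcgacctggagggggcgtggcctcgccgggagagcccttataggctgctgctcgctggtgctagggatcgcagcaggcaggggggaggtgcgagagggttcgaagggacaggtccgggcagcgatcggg
The windows of Hsd11b1 and Nr3c2 held none of the motifs searched, the cyclic AMP response element TGACGTCA among them (1.79% of all windows). In total 6 of the 8 genes were matched, and Nr3c1 and Zbtb16 are named only.

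Zbtb16 (ENSMUSG00000066687) encodes the zinc finger repressor PLZF and is among the genes most strongly induced by glucocorticoids in many cell types. Its level was 5.44, 34.4 and 37.8 RPKM in WT sham mice 1, 2 and 3, and 5.81, 28.6 and 9.44 RPKM in WT TAC mice 7, 9 and 10. It was 3.48, 28.9 and 41.6 RPKM in KI sham mice 1, 2 and 3, and 34.8, 34.2 and 22.9 RPKM in KI TAC mice 5, 6 and 7. Low hearts occurred in 3 of the 4 groups and in no KI TAC heart, and every group overlapped every other. No comparison of Zbtb16 passed the threshold. The difference between KI TAC and WT TAC was 1.28 with a 95% interval from -0.44 to 3.00 (limma adjusted p = 0.297), and in KI TAC against KI sham it was 0.80 with an interval from -0.92 to 2.52.

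Of the 2 receptors, Nr3c2 was called in 3 comparisons and Nr3c1 in none. Nr3c2 (ENSMUSG00000031618), the mineralocorticoid receptor, was at 4.54, 5.22 and 5.23 RPKM in WT sham mice 1, 2 and 3, and at 2.77, 2.05 and 3.77 RPKM in WT TAC mice 7, 9 and 10. It was at 6.14, 5.30 and 6.31 RPKM in KI sham mice 1, 2 and 3, and at 1.62, 1.41 and 1.62 RPKM in KI TAC mice 5, 6 and 7. No 2 groups overlapped, and the order from low to high was KI TAC, WT TAC, WT sham and KI sham. Nr3c2 fell with TAC in WT by 0.66 (SE 0.166, limma adjusted p = 0.0209) and in KI by 1.44 (SE 0.166, limma adjusted p = 0.000117). KI TAC hearts also held less of it than WT TAC hearts (difference -0.58, SE 0.166, limma adjusted p = 0.0410). The difference between the sham groups was 0.21 (SE 0.166, limma adjusted p = 1.00), and the KI and WT responses differed by -0.78 (SE 0.234, limma adjusted p = 0.171). The fall in KI held whichever mouse was left out. The fall in WT was lost without WT sham mouse 2, WT sham mouse 3, WT TAC mouse 7 or WT TAC mouse 9 (adjusted p up to 0.0819) and in a fit of the 2 WT groups alone (adjusted p = 0.0548). The call between the TAC groups was lost with quantile normalization (-0.42), with median-ratio scaling (-0.44), in a fit of the 2 TAC groups alone (adjusted p = 0.114) and when any of 7 mice was left out (adjusted p up to 0.145).

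Nr3c1 (ENSMUSG00000024431, chromosome 18), the glucocorticoid receptor, was at 8.28, 11.6 and 11.5 RPKM in WT sham mice 1, 2 and 3, and at 13.0, 9.70 and 15.5 RPKM in WT TAC mice 7, 9 and 10. It was at 15.1, 7.77 and 11.4 RPKM in KI sham mice 1, 2 and 3, and at 8.87, 5.78 and 8.40 RPKM in KI TAC mice 5, 6 and 7. Every KI TAC heart was below every WT TAC heart, and the difference of -0.66 (SE 0.245) had an adjusted p of 0.0939 by limma over all genes. Neither TAC response passed the threshold, with differences of 0.25 in WT (limma adjusted p = 0.534) and -0.49 in KI (limma adjusted p = 0.163).

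Hsd11b1 (ENSMUSG00000016194), the enzyme that regenerates active glucocorticoid from its inert form inside cells, was between 2.17 and 7.46 RPKM, and all 4 groups overlapped. No difference passed the threshold, and the 95% intervals, which reached from -0.86 to 0.58 in WT TAC against WT sham and from -0.80 to 0.64 in KI TAC against KI sham include changes in either direction. The highest value was in WT sham mouse 2 and the lowest in KI TAC mouse 5.

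In total, 3 of the 8 genes were called in WT TAC against WT sham (Nr3c2, Tsc22d3 and Ddit4, all lower), where 11.6% of all genes tested were called. Between KI TAC and KI sham 3 were called (Sgk1 and Fkbp5 higher, Nr3c2 lower) beside 23.3% of all genes. Between the TAC groups 5 were called (Fkbp5, Ddit4, Sgk1 and Tsc22d3 higher, Nr3c2 lower) beside 11% of all genes. In KI sham against WT sham none was called beside 0.0178% of all genes (2 genes), and of the 8 none had an unadjusted p under 0.05 by limma. These comparisons share groups of mice, so their calls are not independent of each other. In the test of the difference between the KI and WT responses none was called beside 0% of all genes, while 5 of the 8 (Sgk1, Nr3c2, Ddit4, Fkbp5 and Tsc22d3) had an unadjusted p under 0.05, as did 1668 of the 11240 genes. Limma-voom on the recovered reads also called none there.

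The 3 mice of a group did not overlap those of the other group for 3 of the 8 genes in WT TAC against WT sham (35.1% of all genes tested), for 3 in KI TAC against KI sham (38.3%), for 6 in KI TAC against WT TAC (29.5%) and for 1, Nr3c2, in KI sham against WT sham (3.27%). The median difference of the 8 genes was -0.53 in WT TAC against WT sham, 0.21 in KI TAC against KI sham and 1.11 in KI TAC against WT TAC, beside medians over all genes tested of 0.04, -0.10 and -0.12. Scaling each heart by the median of its ratios to all hearts moved the last 2 of these medians to 0.03 and 0.03. With it, 1571 of 2831 called genes were higher in KI TAC against KI sham, where 963 of 2620 were higher without it, and 764 of 1300 were higher in KI TAC against WT TAC, where 328 of 1242 were higher without it. Under that scaling and under quantile normalization, the called members kept their direction, and the calls that were lost were those of Nr3c2 between the TAC groups and of Ddit4 in WT.

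**Figure D2:**
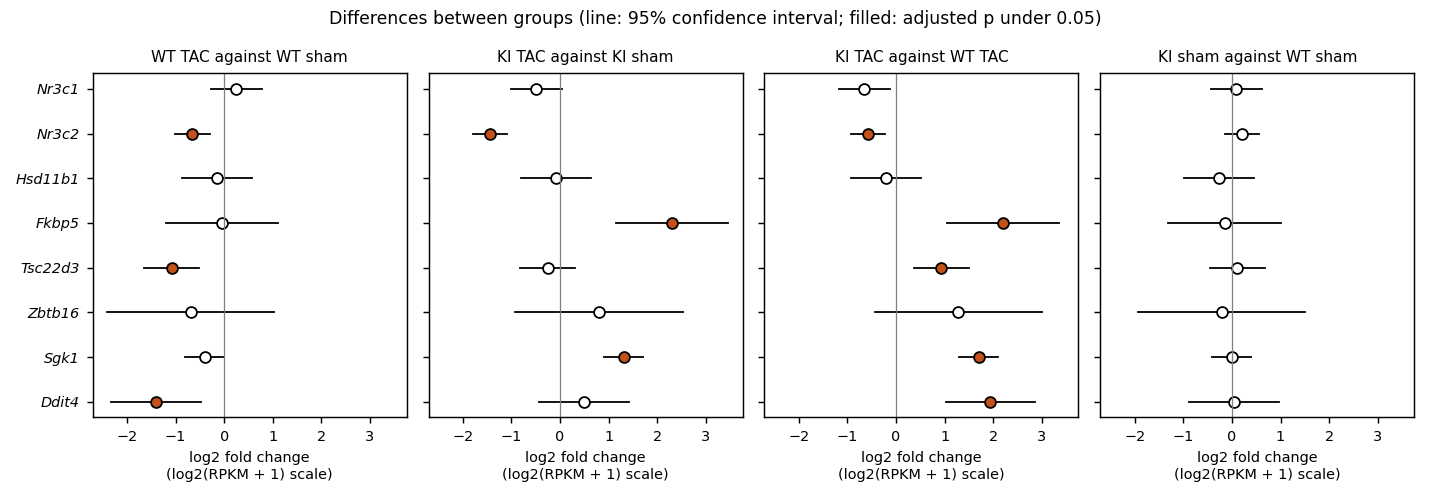
Log2 fold change (log2(RPKM + 1) scale) of the 8 genes in the 4 comparisons, with 95% confidence intervals from limma as lines and filled points where the adjusted p was under 0.05. In KI TAC against WT TAC 4 genes are called higher and Nr3c2 lower, while in KI sham against WT sham all intervals cross 0.

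These genes differed widely in how much mice of the same group varied. The SD between mice of a group was 1.27 on the log2 scale for Zbtb16, 0.844 for Fkbp5, 0.648 for Ddit4 and 0.501 for Hsd11b1, which placed them at percentiles 99.9, 99.4, 98.1 and 95.1 of the 11240 genes tested. Tsc22d3 (0.365) and Nr3c1 (0.332) were at percentiles 85.2 and 79.5, whereas Sgk1 (0.208) and Nr3c2 (0.182) were at percentiles 36.6 and 25.1, below the median of 0.238 over all genes. Of the 5 target genes, Sgk1 had the least spread and with it the least standard error.

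The spread ran through the same mice for several genes. WT sham mouse 1 was the lowest WT sham heart for 7 of the 8 genes, all but Sgk1, where it was the lowest for 31.7% of all genes tested. KI sham mouse 1 was the lowest KI sham heart for 5 of the 8 (Hsd11b1, Fkbp5, Tsc22d3, Zbtb16 and Ddit4), where it was the lowest for 40.2% of all genes. WT TAC mouse 9 was the highest WT TAC heart for 5 of the 8 (Fkbp5, Tsc22d3, Sgk1, Zbtb16 and Ddit4), where it was the highest for 22.1% of all genes. Without WT sham mouse 1 the numbers of members called were again 3, 3 and 5 in the 3 comparisons above, and the part of its lower mitochondrial share in these levels was not tested. Without WT TAC mouse 9, 4 members (Sgk1, Ddit4, Fkbp5 and Nr3c2) passed the threshold in the test of the KI against the WT response, with limma adjusted p from 0.00928 for Sgk1 to 0.0456 for Nr3c2. In that fit 240 of all 11240 genes were called, where none was with all mice.

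**Figure D3:**
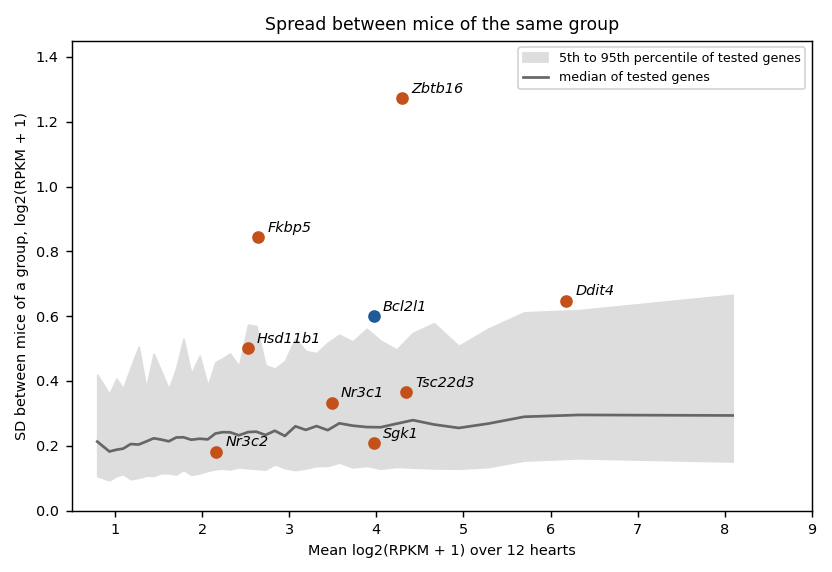
SD between mice of the same group (vertical) against the mean level (horizontal), both in log2(RPKM + 1), for the 8 genes (orange) and Bcl2l1 (blue), with the median (line) and the 5th to 95th percentile (grey) of the tested genes at each level. Zbtb16, Fkbp5 and Ddit4 lie above the grey range, and Sgk1 and Nr3c2 lie below the line.

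The other genes of the pathway were taken from lists written from general knowledge, also with earlier results known, and are given as counts. Of 28 other genes known to be induced by glucocorticoids, 9 were called higher and none lower in KI TAC against WT TAC, with a median difference of 0.91 beside -0.12 for all genes, of which 2.92% were called higher there. The number called in this comparison fell to 1 when WT TAC mouse 7 was left out, to 2 when KI TAC mouse 6 was, and to 3 when WT TAC mouse 10 or KI TAC mouse 5 was. It rose to 15 when WT TAC mouse 9 was left out, and was 2 in a fit of the 2 TAC groups alone. With TAC in KI mice 10 were called higher and 3 lower, and in WT TAC against WT sham 3 higher and 3 lower, with none called in KI sham against WT sham. Of all genes tested, 8.57% were called higher and 14.7% lower with TAC in KI, and 6.96% higher and 4.6% lower with TAC in WT. Lcn2, called higher with TAC in both genotypes, was under 1 RPKM in every sham heart and passed the filter only through TAC hearts. In WT the 6 calls fell to 3 without WT sham mouse 2, WT sham mouse 3 or WT TAC mouse 7. None of the 28 was called for the difference of the responses, but 7 were without WT TAC mouse 9. The genes with the largest differences between KI TAC and WT TAC were Mt2 (3.16, limma adjusted p = 0.00638) and Mt1 (2.11, adjusted p = 0.00940), which encode metal-binding metallothioneins, Pdk4 (2.62, adjusted p = 0.0237), a kinase that shuts off glucose oxidation, Cdkn1a (1.996, adjusted p = 0.0372), the cell cycle inhibitor p21, and Rasd1 (1.93, adjusted p = 0.00869), a small Ras-like protein first found as induced by dexamethasone. Pdk4 was also apart between the sham groups, at 28.4, 51.3 and 66.4 RPKM in WT sham and 180.0, 104.5 and 132.7 RPKM in KI sham mice 1, 2 and 3. The difference between KI sham and WT sham was 1.54 for Pdk4 (SE 0.640, limma unadjusted p = 0.0306) and 1.48 for Angptl4, an inhibitor of lipoprotein lipase (SE 0.516, limma unadjusted p = 0.0123), whose sham groups did not overlap either, and neither passed the adjusted threshold. Of all genes, 3.27% did not overlap between the sham groups. The Pdk4 difference between the TAC groups thus stood beside one between the sham groups, which were other mice, that was not called. The KI and WT responses of Pdk4 differed by 1.08 (SE 0.905, limma adjusted p = 0.579). Of the 9 calls between the TAC groups, the one for Mt2 held in every alternative run, leaving out each mouse included.

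Mt2 shows the pattern by heart. It was at 5.29, 4.60 and 6.33 RPKM in WT sham mice 1, 2 and 3, and at 16.9, 69.3 and 9.38 RPKM in WT TAC mice 7, 9 and 10. It was at 2.64, 9.75 and 5.40 RPKM in KI sham mice 1, 2 and 3, and at 246.0, 254.1 and 146.3 RPKM in KI TAC mice 5, 6 and 7. WT TAC mouse 9 was again the highest WT TAC heart, as it was for 23 of the 28 genes, and all KI TAC hearts were above it. Some genes of the list went the other way, since Klf15, a glucocorticoid-induced regulator of cardiac metabolism, fell with TAC in WT by 1.40 (limma adjusted p = 0.0217) and in KI by 1.05 (limma adjusted p = 0.0476), as did Cdkn1c, a cell cycle inhibitor, by 1.21 and 0.85. With median-ratio scaling the calls of both in KI were lost. The call of Klf15 was also lost in WT without WT sham mouse 2, WT sham mouse 3, WT TAC mouse 7 or WT TAC mouse 10 (adjusted p up to 0.0917), and in KI when any of 7 mice was left out (adjusted p up to 0.178), with quantile normalization, with no filter and in a fit of the 2 KI groups alone. That of Cdkn1c in KI was lost when either KI sham mouse 2 or KI TAC mouse 6 was left out (adjusted p up to 0.0783).

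**Figure D4:**
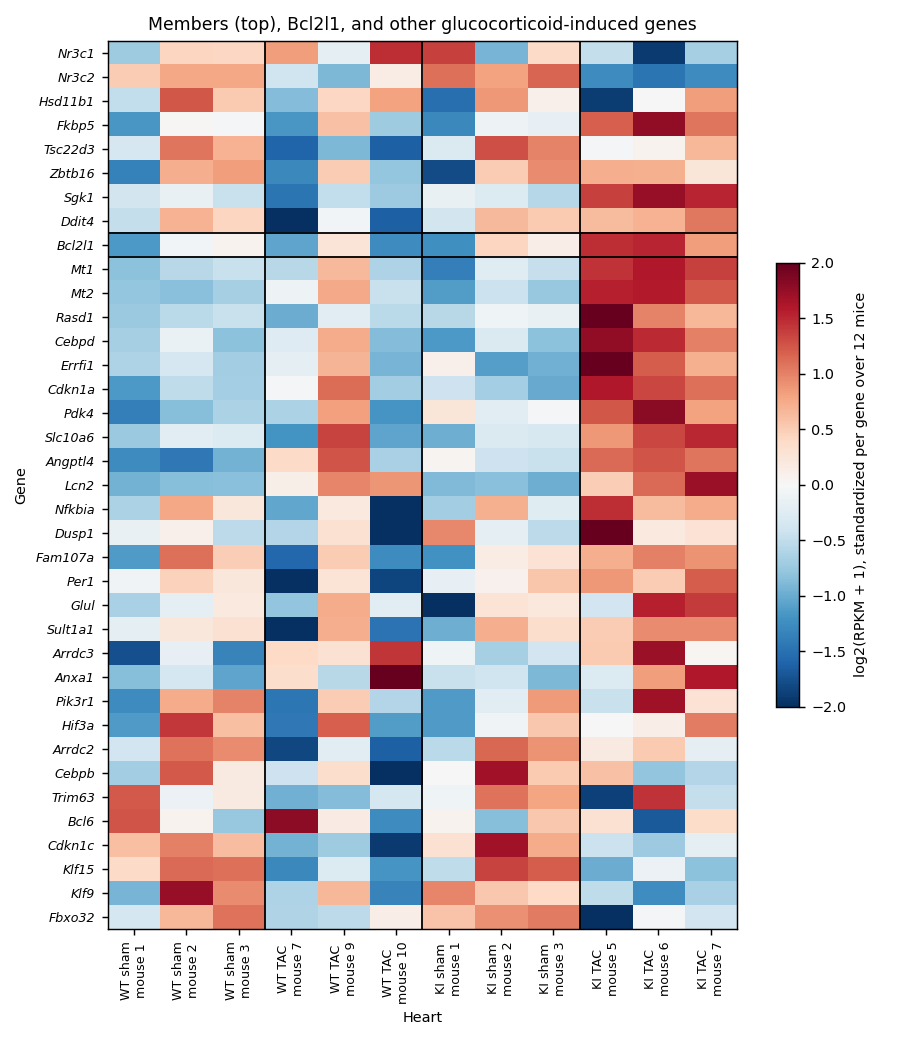
Each row is a gene and each column a heart, coloured by log2(RPKM + 1) standardized over the 12 hearts, with the 8 genes on top, Bcl2l1 below them and then the 28 other glucocorticoid-induced genes, ordered by their mean in KI TAC. Fkbp5, Sgk1 and the upper genes of the list are high in the 3 KI TAC hearts, and WT TAC mouse 9 is the highest WT TAC heart for 23 of the 28.

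Chaperones that hold or carry the receptor were taken next. Of 12 chaperones and cochaperones of the receptor, 1 was called lower in WT TAC against WT sham, 2 higher in KI TAC against KI sham and 1 higher in KI TAC against WT TAC. These shares lie below the 11.6%, 23.3% and 11% of all genes called in either direction, and the counts ran from 1 to 2, from 0 to 4 and from 0 to 3 when each mouse was left out in turn. Fkbp4, which encodes FKBP52, the cochaperone that opposes FKBP51 by helping the receptor bind hormone and reach the nucleus, was the one that fell in WT (difference -1.34, SE 0.231, limma adjusted p = 0.00283), and the one that was higher in KI TAC than in WT TAC (0.92, SE 0.231, limma adjusted p = 0.0254). Its level was 147.0, 96.9 and 98.1 RPKM in WT sham mice 1, 2 and 3, and 46.4, 35.6 and 49.8 RPKM in WT TAC mice 7, 9 and 10. It was 96.2, 138.9 and 105.3 RPKM in KI sham mice 1, 2 and 3, and 84.3, 99.3 and 69.1 RPKM in KI TAC mice 5, 6 and 7. WT TAC thus lay below every other heart, while the fall in KI, of 0.42 on the log2 scale (difference -0.42), did not pass the threshold (limma adjusted p = 0.200). The genes called in KI TAC against KI sham were Hsp90aa1 (1.99, limma adjusted p = 0.0186) and Hspa8 (1.24, limma adjusted p = 0.0316), 2 heat shock proteins of the receptor complex. In WT TAC against WT sham the difference of Hsp90aa1 was 1.74 (SE 0.545, limma adjusted p = 0.0537), just short of the threshold, with 16.8 to 30.1 RPKM in WT TAC against 2.41 to 9.90 RPKM in WT sham, and the KI and WT responses differed by 0.25 (SE 0.770, limma adjusted p = 0.891). KI TAC mouse 5 was far above the other KI TAC hearts, with Hsp90aa1 at 99.1 RPKM in mouse 5 against 25.1 in mouse 6 and 17.0 in mouse 7, and Hspa8 at 522.2, 228.9 and 120.9 RPKM. Without it the differences were 1.26 for Hsp90aa1 and 0.70 for Hspa8, and neither was called. The call of Hsp90aa1 was also lost without KI sham mouse 3, and that of Hspa8 when any of 5 mice was left out (adjusted p up to 0.108) and in a fit of the 2 KI groups alone. The call of Fkbp4 between the TAC groups was lost without WT TAC mouse 7, WT TAC mouse 9, KI TAC mouse 5 or KI TAC mouse 6, and in a fit of the 2 TAC groups alone (adjusted p = 0.0630).

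Of 12 coregulators, none was called in WT TAC against WT sham, 3 were lower in KI TAC against KI sham and 3 were lower in KI TAC against WT TAC, beside 14.7% and 8.13% of all genes called lower. Between the TAC groups 9 of the 12 did not overlap, where 29.5% of all genes did not. Single hearts ran through the whole list, since WT sham mouse 1 and KI sham mouse 2 were each the lowest of their group for 12 of the 12 (31.7% and 37.1% of all genes) and KI TAC mouse 6 was for 9 of the 12 (29.3% of all genes). Both counts fell to 0 with a mouse left out, the first without KI sham mouse 1, KI sham mouse 3, KI TAC mouse 5 or KI TAC mouse 6 and the second without WT TAC mouse 7 or KI TAC mouse 6, and each fell to 1 in a fit of the 2 groups compared. The latter were Smarca4 (-0.97, limma adjusted p = 0.0115), the motor of a chromatin remodelling complex, Carm1 (-0.83, limma adjusted p = 0.0130), an arginine methyltransferase, and Ncoa1 (-0.78, limma adjusted p = 0.0404), a receptor coactivator. The former were Ncoa2, Smarca4 and Carm1. With median-ratio scaling 1 of the 3 remained called between the TAC groups and none in KI TAC against KI sham, in the same direction. Of 6 genes that handle corticosteroids, 2 were tested (H6pd, which supplies the cofactor of Hsd11b1, and Abcb1a, an efflux pump), and none was called. Hsd11b2, Srd5a1 and Serpina6 had no row in the table, and Abcb1b did not pass the filter.

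Among inflammatory genes that glucocorticoids are known to repress, no call was lower. Of 8 tested, 5 were called higher in WT TAC against WT sham, 6 in KI TAC against KI sham and 2 in KI TAC against WT TAC, with medians of 0.95, 1.71 and 0.53, beside 6.96%, 8.57% and 2.92% of all genes called higher. Ccl2, Ccl7, Cxcl1, Ptgs2 and Sele were under 1 RPKM in every sham heart and passed the filter only through TAC hearts. These genes could hardly be called lower with TAC. The counts of TAC against sham thus describe these genes and are not a result beside those shares. When each mouse was left out in turn the counts ran from 4 to 6, from 6 to 6 and from 0 to 3. Ccl2, a chemokine that draws monocytes, rose by 3.06 in WT (limma adjusted p = 8.1e-05) and by 3.74 in KI (limma adjusted p = 1.26e-05). Cxcl1, a chemokine that draws neutrophils, was higher in KI TAC than in WT TAC by 1.28 (limma adjusted p = 0.0153), at 7.20, 3.86 and 2.67 RPKM in KI TAC mice 5, 6 and 7 against 1.89, 1.53 and 0.388 RPKM in WT TAC mice 7, 9 and 10. The other gene called there was Ptgs2 (0.75, limma adjusted p = 0.0305), which encodes cyclooxygenase 2. Both calls were lost without KI TAC mouse 6 and when only the 2 TAC groups were fitted, and that of Ptgs2 also without WT TAC mouse 7, WT TAC mouse 10 or KI TAC mouse 5 and with the smaller pseudocount. Il6, Tnf and Cxcl10 had no row, and Il1b did not pass the filter.

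**Figure D5:**
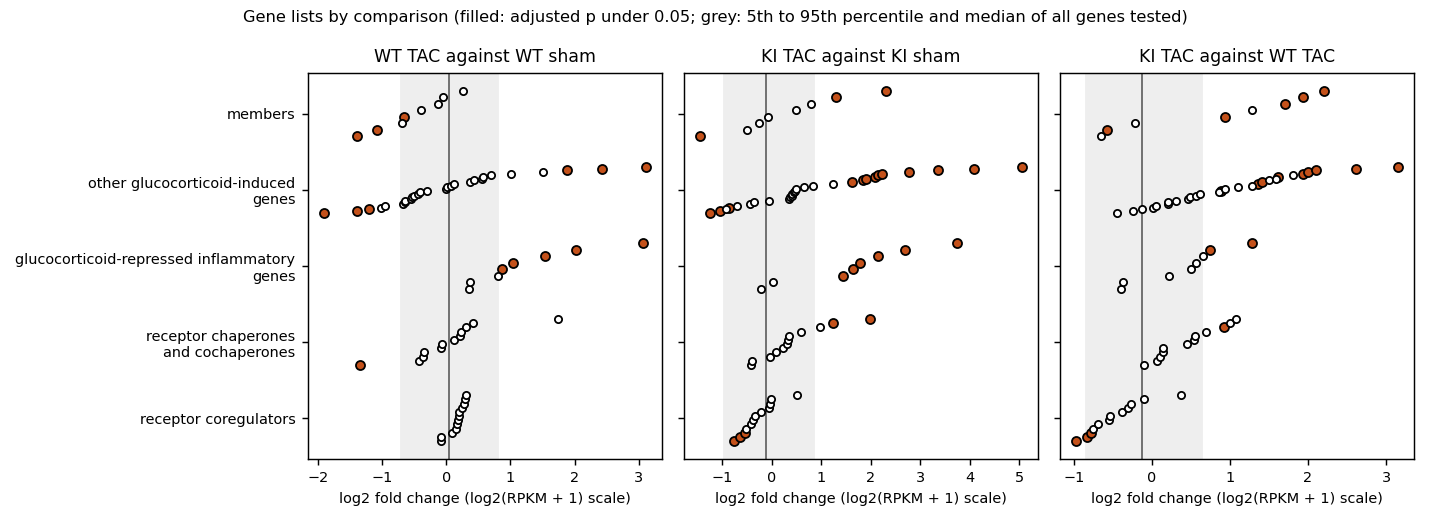
Log2 fold change (log2(RPKM + 1) scale) of each gene of the 8 (members) and of 4 pathway lists in 3 comparisons, filled where the adjusted p was under 0.05, with the median (line) and the 5th to 95th percentile (grey band) of all genes tested. In KI TAC against WT TAC 9 of 28 other glucocorticoid-induced genes are filled and all 9 are to the right.

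In whole hearts, fewer cells of a type and less RNA per cell cannot be told apart, and markers of other cells moved between the groups. The summed level of 5 macrophage markers was 37.2 to 67.3 RPKM in WT TAC and 24.9 to 33.4 RPKM over the other 3 groups, with 3 of the 5 (Cd68, Fcgr1 and Adgre1) called higher in WT TAC against WT sham, 3 (Adgre1, Fcgr1 and Csf1r) called lower in KI TAC against WT TAC, and Csf1r called lower in KI TAC against KI sham. Of all genes, 6.96% were called higher, 8.13% lower and 14.7% lower in these comparisons. The macrophage markers went both ways in KI TAC against KI sham, with differences from -0.53 to 0.84 and no overlap for 4 of the 5. Adgre1 and Csf1r were lower in every KI TAC heart than in every KI sham heart. Cd68 and Mrc1 were higher in the same way, though neither was called. Their means were 10.8 and 5.52 RPKM in KI TAC against 6.27 and 2.70 RPKM in KI sham. Adgre1 lost its call in WT when any of 6 mice was left out (adjusted p up to 0.106), Csf1r lost its call in KI when any of 9 was (adjusted p up to 0.130), and between the TAC groups Adgre1 and Csf1r lost theirs without KI TAC mouse 6 and in a fit of the 2 TAC groups alone, while that of Fcgr1 held. The sum of 6 fibroblast markers was 134.4 to 609.6 RPKM in WT TAC and 92.2 to 168.3 RPKM in KI TAC, with none called between them, and Lum was called lower in KI TAC against KI sham, a call lost when any of 10 mice was left out (adjusted p up to 0.133). Col1a1 made up much of the sum, at 187.8, 67.4 and 461.0 RPKM in WT TAC mice 7, 9 and 10. The 6 differences between the TAC groups ran from -1.67 to -0.07, with Tcf21 at means of 5.36 RPKM in WT TAC and 4.98 in KI TAC. In KI TAC against KI sham they ran from -1.14 to 0.23, with Pdgfra at means of 6.05 and 4.95 RPKM. Neutrophil markers (3 of 5 in the table, without Cxcr2 and Ly6g) summed to 0.395 to 1.27 RPKM over both sham groups, 3.69 to 9.87 RPKM in WT TAC and 4.18 to 20.3 RPKM in KI TAC. Of these 3, S100a9 and Csf3r were called higher in WT TAC against WT sham, all 3 were called higher in KI TAC against KI sham, where 8.57% of all genes were, and none was called between the TAC groups. All 3 were under 1 RPKM in every sham heart and passed the filter only through TAC hearts. Their direction with TAC was thus largely set in advance. Both WT calls were lost without WT sham mouse 3 or WT TAC mouse 9, and in KI that of Csf3r was lost when any of 5 mice was left out, while those of S100a8 and S100a9 held. Of the 6 cardiomyocyte markers 1 was called in each of 3 comparisons, Myh6 lower in WT TAC against WT sham, Pln lower in KI TAC against KI sham and Tnni3 higher in KI TAC against WT TAC. In these comparisons 11.6%, 23.3% and 11% of all genes were called in either direction. The call of Myh6 was lost without WT TAC mouse 7 (adjusted p = 0.0720), that of Pln when any of 5 mice was left out (adjusted p up to 0.0915) and that of Tnni3 when any of 7 was (adjusted p up to 0.138). Endothelial markers (0 of 5 called) and erythroid markers (0 of 5 called) gave no call in any of these comparisons, and the lymphocyte and adipocyte markers had no row in the table. The part of these cells in the levels of the glucocorticoid genes was not tested.

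The genes whose pattern over the 12 hearts was most like that of each called member were found by the mean absolute difference of values standardized over the 12 hearts, as a description. The nearest to Fkbp5 was Bcl2l1, the gene altered in these mice, at 0.236 standardized units, where the median over all genes tested was 1.21. Bcl2l1 was at 7.04, 14.2 and 15.4 RPKM in WT sham mice 1, 2 and 3, and at 7.50, 17.2 and 6.59 RPKM in WT TAC mice 7, 9 and 10. It was at 6.67, 19.1 and 16.0 RPKM in KI sham mice 1, 2 and 3, and at 35.8, 37.0 and 24.5 RPKM in KI TAC mice 5, 6 and 7. It was higher in all KI TAC hearts than in the other 9, and the order of hearts it shares with Fkbp5 is what the measure of likeness picked and is no further result. Fitted as the gene altered in these mice, Bcl2l1 rose in KI TAC against KI sham by 1.26 (SE 0.397, limma adjusted p = 0.0354) and was higher in KI TAC than in WT TAC by 1.64 (SE 0.397, limma adjusted p = 0.0231). The first of these calls was lost without KI sham mouse 1, KI sham mouse 3, KI TAC mouse 5 or KI TAC mouse 6 (adjusted p up to 0.143), and the second without WT TAC mouse 7, WT TAC mouse 10, KI TAC mouse 5 or KI TAC mouse 6 (adjusted p up to 0.104).

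The nearest to Ddit4 was Per1 (0.234 against a median of 1.18), a clock gene that glucocorticoids induce directly, followed by Timp4 and Sult1a1. Per1 was at 9.46, 31.0 and 10.8 RPKM in WT TAC mice 7, 9 and 10 and at 41.2, 34.7 and 48.6 RPKM in KI TAC mice 5, 6 and 7, and since it was picked for its likeness to Ddit4, its levels are a description. The nearest to Sgk1 were Fabp4 (0.282 against a median of 1.19), Arl4a and Gpihbp1. The nearest to Tsc22d3 were Lims2 (0.250 against a median of 1.18), Arrdc2 and Tmem82, and the nearest to Nr3c2 were Pitpnc1 (0.140 against a median of 1.03), Fblim1 and Kcnj3.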

How the data were processed

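Hearts of 12 mice were sequenced by the authors as whole-heart RNA. Per the labels and the study's methods, reads were trimmed with Trimmomatic (0.39), aligned with HISAT2 (2.2.1) to GRCm38, counted per gene with HTSeq (0.6.1) and tested between groups with edgeR and limma. The deposited values are RPKM, 1 column for each mouse, and the step at which they were scaled was not given in the sources used here.

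From RPKM and exon lengths (GENCODE M21, 13546 of 13552 identifiers matched), low values came out as whole reads (tolerance 0.02 reads) for 96.3% to 97.7% of values per heart, against at most 7.24% with a wrong step, which gave 23650191 to 32455166 reads on genes per heart. Genes that reached 1 RPKM in 3 mice or more were tested with limma (3.58.1, R 4.3.3, lmFit and eBayes with trend) on log2(RPKM + 1) over all 4 groups, with Benjamini-Hochberg adjustment. The pseudocount understates the change of low genes. The script was tested on simulated data. Mice of a group were told apart by their number alone. Each p-value sets a difference against the spread between mice of a group, pooled over the 4 groups and moderated with a trend over all genes. With groups of 3, an exact permutation test could not go below p = 0.1.

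The 8 members and all lists were chosen with earlier results of these data known, and the clock genes after seeing the data. Named genes are the 8 members, up to 5 called genes of each list by size of change, the 3 genes nearest to each called member (predicted genes and pseudogenes passed over), list genes that give a range or do not pass, the markers and Bcl2l1. The alternatives were a pseudocount of 0.1, no filter, quantile normalization, median-ratio scaling, limma-voom on recovered reads, fits of 2 groups, a replicate block and leaving out each mouse. Promoter windows were RefSeq's (GRCm38.p6), searched on both strands.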

Additional observations from a re-analysis of the deposited data

Results flagged for a closer look

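Sgk1 was singled out because its hearts lay on opposite sides of the sham hearts in the 2 genotypes. Every WT TAC heart was below every WT sham heart and every KI TAC heart was above every KI sham heart. The change in WT by itself did not pass the threshold (difference -0.40, limma adjusted p = 0.182). The difference between the KI and the WT response was 1.71 on the log2(RPKM + 1) scale (SE 0.265, limma unadjusted p = 1.64e-05), with an adjusted p of 0.0919 over all 11240 genes, which did not pass the threshold. The adjusted p ranged from 0.00928 to 0.253 when each mouse was left out in turn, and it passed when WT TAC mouse 9, WT TAC mouse 10 or KI TAC mouse 7 was the one left out.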

How the results depend on the processing

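Members called numbered 3 in WT TAC against WT sham, 3 in KI TAC against KI sham, 5 in KI TAC against WT TAC, 0 in KI sham against WT sham and 0 for the difference of the responses. A fit of only the groups compared left 1 call in WT TAC against WT sham and 1 in KI TAC against WT TAC, and over all genes 216 calls in place of 1242 in the latter. When each mouse was left out in turn, with fewer samples in each fit, the counts ran from 0 to 3, from 3 to 3, from 1 to 5, from 0 to 0 and from 0 to 4 in that order. They fell to 0 in WT TAC against WT sham without WT sham mouse 2, WT sham mouse 3 or WT TAC mouse 7. In KI TAC against WT TAC they fell to 1 without WT TAC mouse 7 or KI TAC mouse 6, to 2 without WT TAC mouse 10 or KI TAC mouse 5, and to 3 without WT sham mouse 3 or KI sham mouse 3. For the difference of the responses they rose to 4 without WT TAC mouse 9 and to 1 without WT TAC mouse 10 or KI TAC mouse 7, in fits that called 240, 8 and 182 of all genes.

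Of the called values of members, 54 kept their call and direction and 12 lost the call over the alternatives with all mice, and 96 and 36 did so over the fits that left out a mouse. None of these reversed. Hsd11b1 in KI TAC against KI sham reversed with quantile normalization (0.031) and median-ratio scaling (0.046). Among values that were not called, left-out mice gave ranges across 0 for Hsd11b1 in WT TAC against WT sham (-0.34 to 0.085), KI TAC against KI sham (-0.38 to 0.27), KI TAC against WT TAC (-0.48 to 0.13), KI sham against WT sham (-0.51 to 0.026) and the difference of the responses (-0.24 to 0.41). They did so too for Fkbp5 in WT TAC against WT sham (-0.68 to 0.40) and Zbtb16 in KI TAC against KI sham (-0.20 to 1.43). In KI sham against WT sham they did so for Nr3c1 (-0.12 to 0.31), Fkbp5 (-0.63 to 0.33), Tsc22d3 (-0.13 to 0.39), Sgk1 (-0.073 to 0.074), Zbtb16 (-1.05 to 0.79), Ddit4 (-0.28 to 0.34) and Bcl2l1 (-0.20 to 0.55). The cause was not tested.

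With the mouse number as a replicate block, which was possible only between the sham groups, 0 members and 0 genes were called in KI sham against WT sham. Deviations from the group mean correlated at -0.22, -0.30 and 0.44 for mice numbered 1, 2 and 3, and not every mouse correlated best with its own number. With 3 mice in a group, whose deviations cancel out, these values cannot decide whether the numbers mark a shared day or batch. Depth did not limit the members, while genes under 1 RPKM were not tested.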

Other observations

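Because Per1 was the gene most like Ddit4, 13 circadian clock genes were looked at after seeing the data. Their summed level was 248.7 to 348.0 RPKM in WT sham, 147.7 to 200.04 RPKM in WT TAC, 173.2 to 312.5 RPKM in KI sham and 150.2 to 195.3 RPKM in KI TAC. The lowest sham value was below the highest TAC value in KI, and the sham and TAC ranges did not overlap in WT. Single genes moved in opposite directions, so the sum does not describe each of them. With TAC in WT the 13 differences ran from -1.63 to 0.80 (median -0.73). In KI they ran from -1.92 to 0.48 (median 0.07). Clock was at 2.75 to 3.61 RPKM in WT TAC against 1.08 to 1.76 RPKM in WT sham. Its difference of 0.80 was not called (limma adjusted p = 0.0525). Arntl, Nr1d1 and Npas2 also had positive differences in WT (0.75, 0.57 and 0.46), with overlap and without a call. Hlf, a clock-controlled transcription factor, was lower in WT TAC than in WT sham (-1.33, limma adjusted p = 0.00958) and in KI TAC than in KI sham (-1.44, limma adjusted p = 0.00310). In KI TAC against KI sham Per3 (-1.41, limma adjusted p = 0.0269) and Dbp (-1.92, limma adjusted p = 0.0253) were lower as well, and both of these calls were lost without KI sham mouse 2, KI sham mouse 3, KI TAC mouse 5 or KI TAC mouse 6, while those of Hlf held. These calls were 1 of 13 genes in WT and 3 of 13 in KI, where 11.6% and 23.3% of all genes were called. Between the TAC groups none was called but Per1, the gene the list was started from, where 11% of all genes were called, and no clock gene was called between the sham groups. Of the 13 genes, 9 were lowest in WT sham mouse 1 among the WT sham hearts (31.7% of all genes were) and 9 were lowest in KI sham mouse 1 among the KI sham hearts (40.2% of all genes were), the mice that were also lowest for Fkbp5, Tsc22d3, Zbtb16 and Ddit4. The part of the time of day in these levels was not tested.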
